A study of Mus musculus with 8 samples.

Results

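The genes described here encode subunits of the SWI/SNF chromatin remodeller, a complex that uses ATP to slide or evict nucleosomes. They are 10 genes of the 19411 on the array: the D subunits Smarcd1, Smarcd2 and Smarcd3, the ATPases Smarca2 and Smarca4, the core subunits Smarcb1, Smarcc1 and Smarcc2, and the ARID subunits Arid1a and Arid1b. They were chosen by gene symbol, and each was represented by 1 probe set (a group of probes read as one value). RNA of C57/Bl6 mice was hybridised to 8 arrays, 1 per sample: sperm of males on a low protein diet (2 arrays), under caloric restriction (1 array) and on the control diet (3 arrays), and epididymal tissue of a low protein male sample (1 array) and a control male sample (1 array). Low protein and control males were kept on their diet to an age of 9 to 12 weeks, and the labels give no such age under caloric restriction. Sperm came from the caudal epididymis. The labels do not say that replicates came from separate animals or whether animals were pooled, so the p-values cover only sample-to-sample spread, which may be technical.

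In somatic cells a SWI/SNF complex holds a single ATPase, either Smarca4 (also called Brg1) or Smarca2 (Brm), on a scaffold of Smarcc1, Smarcc2 and Smarcb1. The Smarcd subunits link the complex to transcription factors, and Smarcd3 is known for its part in heart and skeletal muscle gene programs in mice and as a partner of nuclear receptors. In the male germ line Smarca4 is needed for meiosis in mice. Mature sperm are largely transcriptionally silent, so their RNA is mostly what remained from earlier stages. The series asked how paternal diet relates to the RNA of sperm.

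Values are log2 intensities, so a difference of 1 is a doubling of signal, and no level of one gene is set against that of another. A gene counted as changed when its adjusted p was under 0.05 by limma (Benjamini-Hochberg over 13587 genes tested; all 10 subunit genes were among them). One library stood apart. Low protein sperm replicate 2 correlated with the other sperm arrays at 0.71 to 0.86 over the genes tested, while the other 5 sperm arrays correlated with each other at 0.85 to 0.98 and the epididymis arrays at 0.99. The main results that rest on it are therefore given with and without it.

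Markers of the labelled tissues were checked. All 16 late spermatid and sperm markers were higher in sperm than in epididymis, and all 14 smooth muscle markers were lower (adjusted p under 0.05 by limma for each). Of the other lists, 14 of 17 epididymal epithelium, 10 of 11 fibroblast and matrix and 3 of 6 endothelium markers tested passed as lower. All 5 earlier germ cell markers tested passed as higher. On the array were 24 epithelium, 12 fibroblast and matrix, 10 endothelium and 10 earlier germ cell markers, and a filter on mean level left out the rest. The 5 germ cell markers averaged 5.37 in both epididymis arrays, below the filter level of 5.69. As a group they passed the filter through sperm, so being higher there was largely built in. Of 12 leukocyte markers 1 passed as higher and 0 as lower. Over all genes 18.4% passed as higher and 30.1% as lower. Signal was also read in sperm for genes of the PCR screen of the sperm preparations, and no detection call was used. Actb, the cytoplasmic actin, is also a SWI/SNF subunit, and the screen looked for it. It read 11.04 and 10.49 in low protein, 11.28 in caloric restriction and 11.43, 11.61 and 11.47 in control sperm. In epididymis it read 12.50 in low protein and 12.67 in control. Myh11, the smooth muscle myosin that the screen also used, read 7.51 and 7.09 in low protein, 7.85 in caloric restriction and 8.13, 7.98 and 7.94 in control sperm, against 11.77 in low protein and 11.79 in control epididymis. In samples of this kind fewer cells of a type and less RNA per cell cannot be told apart.

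Upstream sequences of the 3 D subunit genes are shown because Smarcd3 had the widest spread among the subunit genes and Smarcd1 and Smarcd2 are its paralogs. Each line gives the 250 bases before the annotated start, 5′ to 3′, from RefSeq on GRCm38.p6, with capitals on any motif found. The motifs searched, on both strands, were the GC box (GGGCGG), the CCAAT box, the TATA box (spelled TATAAA) and the E-box (spelled CACGTG).
Smarcd3 (chr5:24602003-24602252, minus strand): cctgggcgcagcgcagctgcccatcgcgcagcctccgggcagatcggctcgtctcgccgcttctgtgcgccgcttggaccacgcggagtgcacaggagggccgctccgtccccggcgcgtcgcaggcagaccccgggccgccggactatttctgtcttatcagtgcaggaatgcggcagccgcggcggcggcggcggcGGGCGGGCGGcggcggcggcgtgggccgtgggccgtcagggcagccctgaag
Smarcd1 (chr15:99702037-99702286, plus strand): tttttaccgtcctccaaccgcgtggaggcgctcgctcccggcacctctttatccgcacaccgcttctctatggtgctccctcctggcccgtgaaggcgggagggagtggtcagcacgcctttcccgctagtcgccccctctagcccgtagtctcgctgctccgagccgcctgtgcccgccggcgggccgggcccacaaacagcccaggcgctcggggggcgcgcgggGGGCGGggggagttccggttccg
Smarcd2 (chr11:106267633-106267882, minus strand): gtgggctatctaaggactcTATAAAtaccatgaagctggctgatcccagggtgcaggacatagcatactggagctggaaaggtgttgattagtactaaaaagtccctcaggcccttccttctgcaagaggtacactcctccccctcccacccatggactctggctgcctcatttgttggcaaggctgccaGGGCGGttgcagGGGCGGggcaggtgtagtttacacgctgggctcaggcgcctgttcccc
The Smarcd3 window held 38 CpG dinucleotides and 76% G and C, the Smarcd1 window 29 and 71.2%, and the Smarcd2 window 4 and 56.4%. The median over 32851 promoter windows of the same length was 6 CpG, and 98.1%, 93.2% and 37.8% of them held fewer than these windows of Smarcd3, Smarcd1 and Smarcd2. The GC box occurred 2 times in the Smarcd3 window, where both copies overlap, once in that of Smarcd1 and 2 times in that of Smarcd2, and 32.7% of all windows held at least 1. The TATA box occurred once, in the Smarcd2 window (12.4% of all windows held it). Neither the CCAAT box (held by 33.8% of all windows) nor the E-box (held by 6.02%) was found in these 3 windows. All 10 genes had a promoter entry, and Arid1a had 2. The windows of the subunit genes not shown held from 18 CpG (1 of the Arid1a windows) to 40 (Smarcc2). Of all windows, 78.3% and 98.7% held fewer than these. Matches describe letters only, and binding was not measured.

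Smarcd3 had the widest spread of the 10 genes, and most of that spread lay in a single array. Its log2 level was 10.22 and 8.05 in low protein sperm, 9.79 in caloric restriction sperm and 10.25, 10.53 and 10.61 in control sperm, against 10.26 in low protein and 10.12 in control epididymis. Both low protein arrays lay below all control sperm arrays, the first only just and the second by over 2. As linear signal, the low protein arrays stood at 84.4% and 18.8% of the control sperm mean and the caloric restriction array at 62.8%. Over the 6 sperm arrays the range of Smarcd3 was 2.56, a range that 64 of 13587 genes (0.471%) had or exceeded; without low protein replicate 2 it was 0.82. On that replicate Smarcd3 was among the 16 genes (0.118%) whose difference from the control sperm mean was -2.41 or lower.

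The low protein difference of Smarcd3 did not pass the test. It was -1.33 ± 0.53 (SE; 2 low protein and 3 control arrays; 95% interval -2.55 to -0.11, adjusted p by limma 0.18). Without low protein replicate 2 the difference was -0.24 ± 0.20 (SE; adjusted p by limma 0.673), and without replicate 1 it was -2.41 ± 0.20 (SE; adjusted p by limma 3.09e-05), where the single array left is assumed to vary like the control group. After cyclic loess normalization it was -0.64. In the same arrays the mean level of 14 smooth muscle markers was 7.00 and 6.69 in low protein sperm and 7.26 to 7.50 in control sperm, and that of 17 epididymal epithelium markers 8.33 and 7.75 in low protein sperm, against 8.61 to 8.83 in control sperm. With the mean of these 31 markers as a covariate the estimate for Smarcd3 turned to 1.49 ± 0.41 (SE; adjusted p by limma 0.537). That mean did not overlap between the diets (7.73 and 7.27 in low protein sperm, 8.09 to 8.20 in control sperm), so diet and marker level cannot be told apart.

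The other D subunits, which occupy the same place in the complex as Smarcd3, spread less. Smarcd1 read 7.18 and 7.00 in low protein, 6.89 in caloric restriction and 7.13, 7.27 and 7.35 in control sperm, against 7.14 in low protein and 7.00 in control epididymis. Smarcd2 read 7.56 and 7.39 in low protein, 7.70 in caloric restriction and 7.42, 7.81 and 8.05 in control sperm, against 7.96 in low protein and 7.78 in control epididymis. For both genes the low protein and control ranges overlapped. The low protein differences were -0.16 ± 0.16 for Smarcd1 and -0.28 ± 0.21 for Smarcd2 (SE; adjusted p by limma 0.577 and 0.437), with 95% intervals of -0.54 to 0.22 and -0.77 to 0.21. They were -0.07 and -0.19 without low protein replicate 2. Smarcd1 was lowest on the caloric restriction array, below all 3 control arrays.

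**Figure D1:**
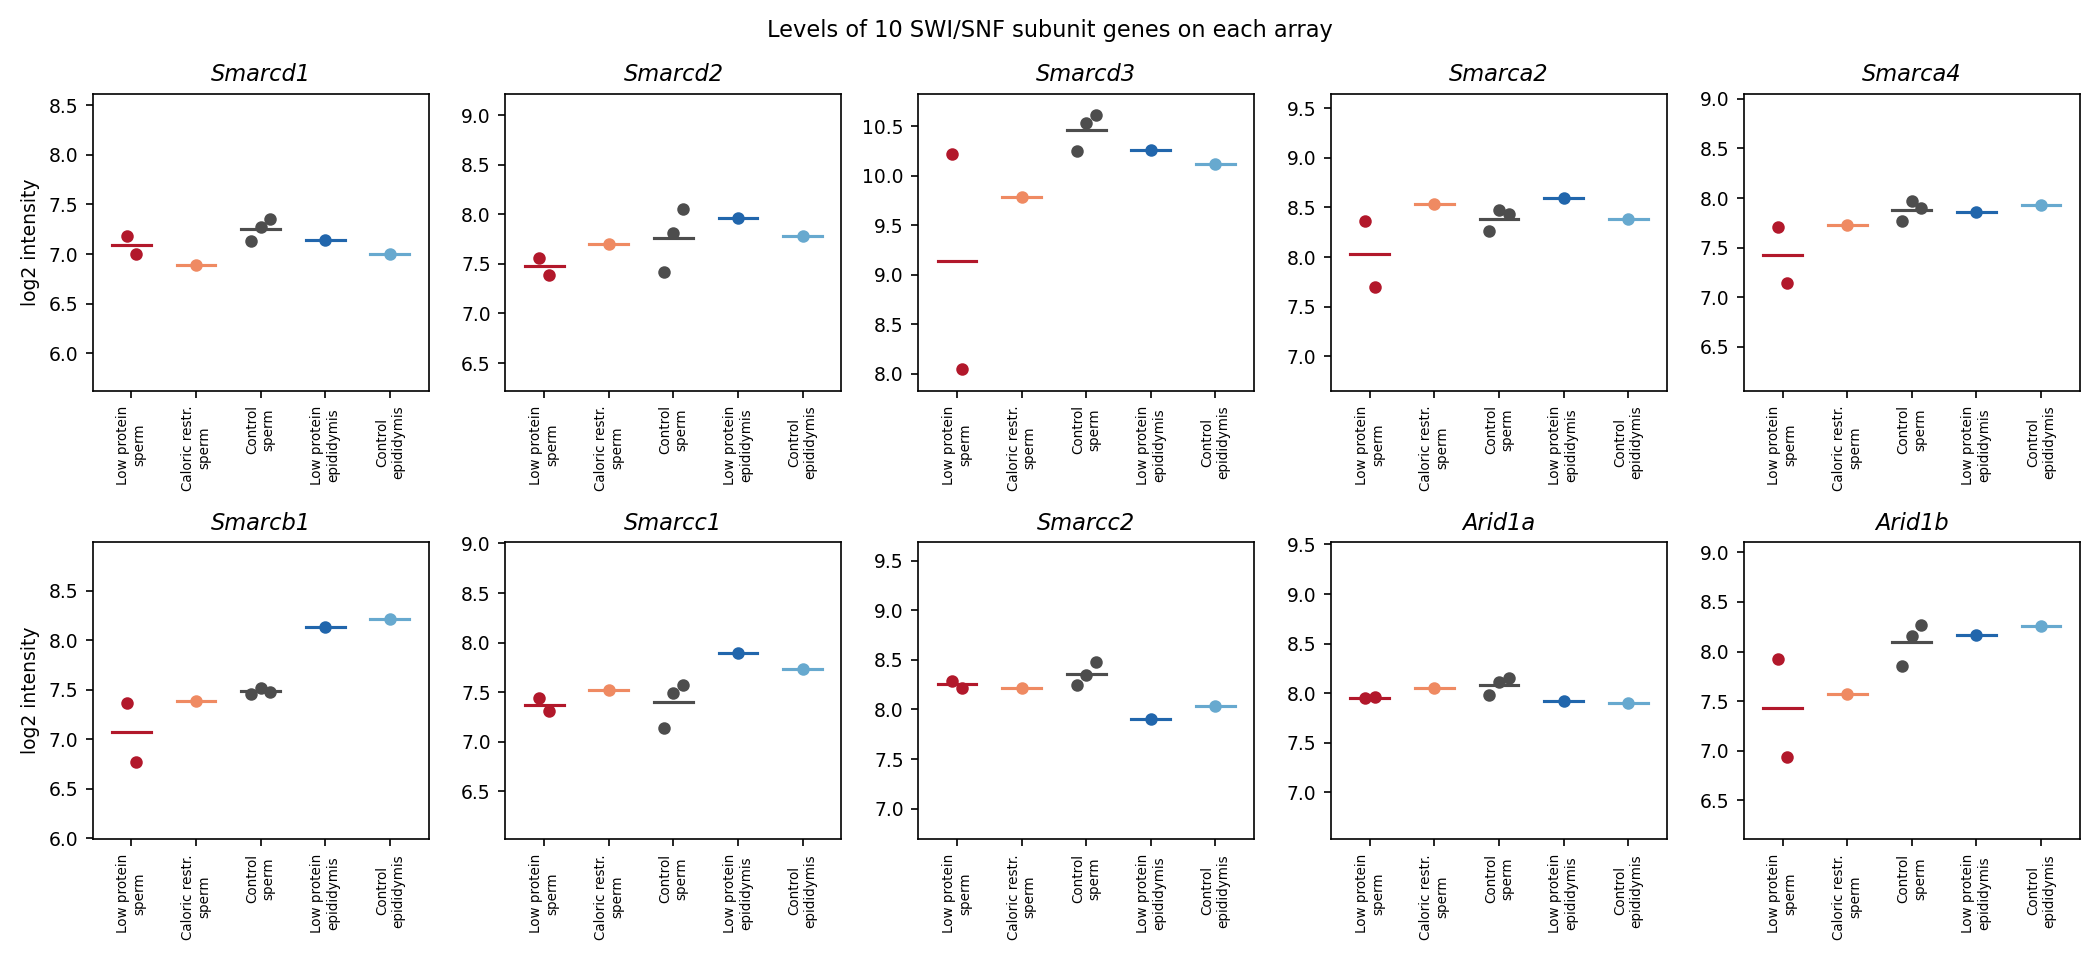
Log2 intensity of each of the 10 SWI/SNF subunit genes (1 panel per gene; every panel spans 3 log2 units) on each of the 8 arrays; points are arrays and bars are group means. The Smarcd3 panel shows 1 low protein sperm array at 8.05 and the other at 10.22, beside control sperm arrays from 10.25 to 10.61.

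The ATPases differed between the low protein arrays as well. Smarca4 read 7.71 and 7.14 in low protein, 7.73 in caloric restriction and 7.77, 7.97 and 7.90 in control sperm, against 7.86 in low protein and 7.93 in control epididymis. Smarca2 read 8.36 and 7.70 in low protein, 8.53 in caloric restriction and 8.26, 8.47 and 8.43 in control sperm, against 8.60 in low protein and 8.38 in control epididymis. All 3 restricted diet arrays lay below the control arrays for Smarca4, while for Smarca2 the first low protein array lay among the controls and the second below them. Low protein differences were -0.45 ± 0.21 for Smarca4 and -0.36 ± 0.22 for Smarca2 (SE; adjusted p by limma 0.213 and 0.341). Without low protein replicate 2 they were -0.17 and -0.02.

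Among the core subunits, Smarcb1, which contacts the nucleosome, read 7.37 and 6.77 in low protein, 7.39 in caloric restriction and 7.46, 7.52 and 7.48 in control sperm, against 8.13 in low protein and 8.21 in control epididymis. The control sperm arrays lay within 0.056 of each other, and all restricted diet arrays lay below them. The low protein difference was -0.42 ± 0.20 (SE; adjusted p by limma 0.241), and -0.12 without low protein replicate 2. Smarcc1, a scaffold subunit, read 7.44 and 7.31 in low protein, 7.52 in caloric restriction and 7.14, 7.49 and 7.57 in control sperm, against 7.89 in low protein and 7.73 in control epididymis. Its paralog Smarcc2 read 8.29 and 8.22 in low protein, 8.22 in caloric restriction and 8.25, 8.35 and 8.48 in control sperm, against 7.90 in low protein and 8.04 in control epididymis. Sperm groups overlapped for Smarcc1, and for Smarcc2 the low protein and control ranges did. Low protein differences were -0.02 ± 0.19 for Smarcc1 and -0.11 ± 0.16 for Smarcc2 (SE; adjusted p by limma 0.956 and 0.707), and 0.045 and -0.075 without low protein replicate 2.

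The ARID subunits, alternative large subunits of the canonical complex, had unequal levels on the second low protein array relative to control. Arid1b read 7.92 and 6.94 in low protein, 7.57 in caloric restriction and 7.85, 8.16 and 8.27 in control sperm, against 8.17 in low protein and 8.26 in control epididymis. Arid1a read 7.95 and 7.96 in low protein, 8.05 in caloric restriction and 7.98, 8.11 and 8.15 in control sperm, against 7.92 in low protein and 7.90 in control epididymis. Low protein replicate 2 minus the control sperm mean was -1.15 for Arid1b and -0.11 for Arid1a. Low protein differences were -0.66 ± 0.29 for Arid1b and -0.12 ± 0.16 for Arid1a (SE; adjusted p by limma 0.199 and 0.669). Without that replicate they were -0.17 and -0.12.

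Counted together, 0 of the 10 subunit genes passed in low protein sperm, and 0% of the 13587 genes tested did (adjusted p under 0.05 by limma; also 0 with a trend in eBayes). Without low protein replicate 1, which leaves 1 low protein array, the median change was -0.53 over the subunit genes and -0.01 over all genes. At an unadjusted p under 0.05 there were 3406 genes in all; 1 subunit gene, Smarcd3, was among those with lower values, against a background of 13.1%. The estimate was below 0 for 10 of 10 subunit genes and for 56.5% of all genes, with a median of -0.32 for the subunit genes and -0.06 over all genes. Without low protein replicate 2 it was below 0 for 9 of 10 and for 62.3% of all genes (medians -0.12 and -0.08), after quantile normalization for 8 of 10 and 52%, and after cyclic loess for 6 of 10 and 50%. For Smarcd3, Smarca4, Smarcb1 and Arid1a both low protein arrays lay below all control arrays, which is 4 of 10 genes, against 22.4% of all genes. Low protein replicate 2 was the lowest of the 6 sperm arrays for 7 of 10 subunit genes and for 33.9% of all genes. It lay a median of 0.53 below the control sperm mean over the subunit genes, and its median over all genes was -0.01. On replicate 1 the medians were -0.12 for the subunit genes and -0.08 over all genes.

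**Figure D2:**
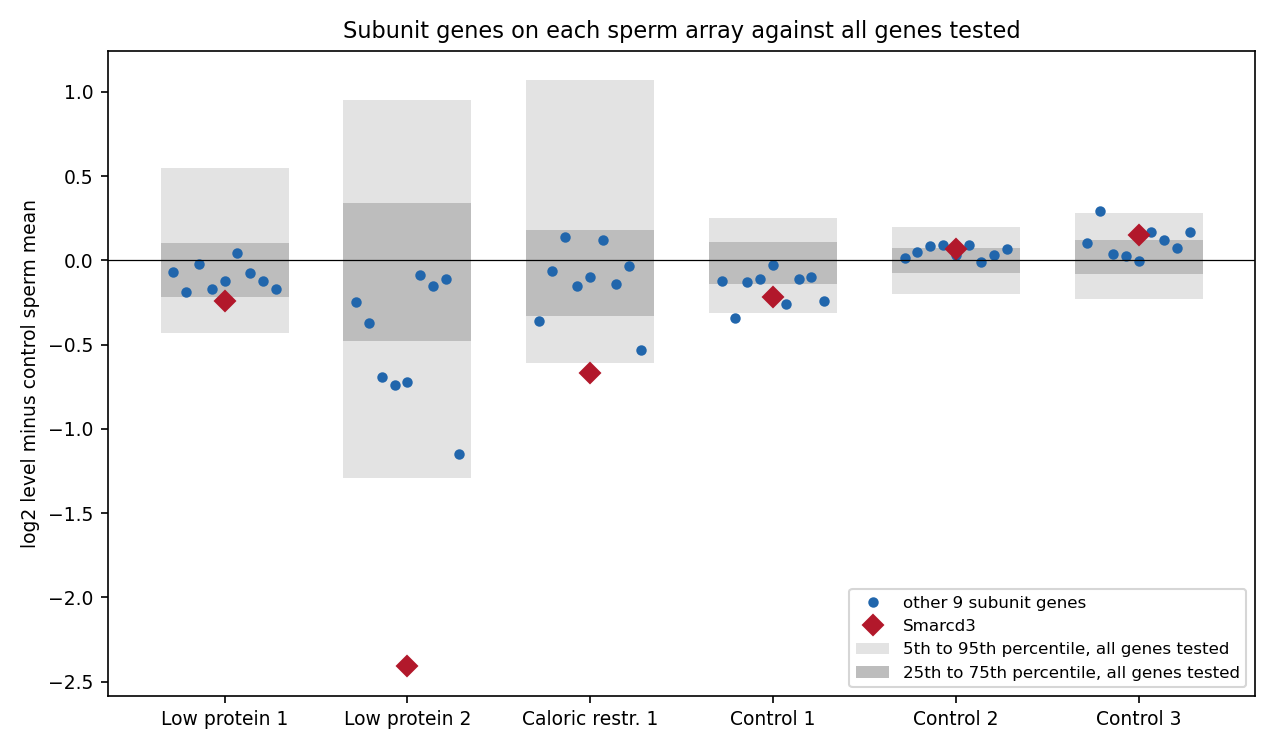
Log2 level of the subunit genes minus the control sperm mean (vertical axis) on each of the 6 sperm arrays; grey bars span the 25th to 75th and the 5th to 95th percentiles of all 13587 genes tested, diamonds are Smarcd3 and circles the other 9 subunit genes. On low protein array 2 Smarcd3 lies at -2.41, far outside the grey bars (5th percentile -1.29), and Arid1b at -1.15 is inside them.

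Under caloric restriction no subunit gene passed. Smarcd3 differed by -0.67 ± 0.67, Arid1b by -0.53 ± 0.36 and Smarcd1 by -0.36 ± 0.21 (SE; 1 caloric restriction and 3 control arrays; adjusted p by limma 0.62, 0.493 and 0.427). The other 7 lay between -0.15 and 0.14. Limma called 5.56% of all genes here, nearly all of them higher, and 0 of 10 subunit genes. At an unadjusted p under 0.05 with lower values there were 0 of 10 subunit genes and 4.17% of all genes. The single array lay below all control arrays for 6 of 10 subunit genes and for 45.8% of all genes. Its spread was taken from the other sperm groups, so the gap between the low protein arrays entered the error of Smarcd3. When one or the other low protein array was left out, the difference stayed at -0.67 with an SE of 0.20. Replicate spread then came from the 3 control arrays alone. The marker levels of the caloric restriction array were 7.10 for smooth muscle and 8.17 for epididymal epithelium, below the control range in both. With the mean of the 31 markers as a covariate the estimate for Smarcd3 turned to 1.32 ± 0.35 (SE; adjusted p by limma 0.0627); that mean was 7.69 on this array and 8.09 to 8.20 in control sperm, so diet and marker level cannot be told apart here either.

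Taking low protein and caloric restriction arrays together against control, no subunit gene passed either. Smarcd3 differed by -1.11 ± 0.46 and Arid1b by -0.62 ± 0.25 (SE; 3 restricted and 3 control arrays; adjusted p by limma 0.169 and 0.158). Leaving out low protein replicate 2, they differed by -0.46 ± 0.18 and -0.35 ± 0.18 (SE; adjusted p by limma 0.175 and 0.267), and after cyclic loess by -0.57 and -0.39. The marker covariate turned Smarcd3 to 1.34 ± 0.36 (SE; adjusted p by limma 0.31). Limma called 2.75% of all genes and 0 of 10 subunit genes. At an unadjusted p under 0.05 these 2 subunit genes had lower values, beside 14% of all genes. All restricted diet arrays lay below all control arrays for Smarcd3, Smarca4 and Smarcb1, which is 3 of 10, against 18.1% of all genes. The comparisons with control share the same 3 control arrays. Between low protein and caloric restriction sperm 0 of 10 subunit genes and 0% of all genes passed by limma. The unadjusted p was under 0.05 for 1316 genes, none of them a subunit gene, and 23 genes passed with a trend in eBayes. The largest difference was that of Smarcd3 at -0.66 ± 0.71 (SE), which was 0.43 without low protein replicate 2.

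Sperm had a lower level of Smarcb1 than epididymis, and it was the only subunit gene of the 10 to pass in that comparison. All 6 sperm arrays (6.77 to 7.52) lay below both epididymis arrays, and Smarcb1 fell by 0.88 ± 0.19 (SE; estimated from 5 sperm and 2 epididymis arrays, the caloric restriction array being absorbed by its diet term; adjusted p by limma 0.00483). The call held after median centring, quantile normalization and cyclic loess (-0.93, -0.57 and -0.54), and without low protein sperm replicate 2 (-0.74, adjusted p by limma 0.000352). It was lost without the low protein epididymis array (-0.72, adjusted p by limma 0.0857). Smarcc1 also lay below both epididymis arrays on all sperm arrays, with a difference of -0.41 ± 0.16 (SE; adjusted p by limma 0.0629). Smarcc2 and Arid1a lay above them on all sperm arrays, with differences of 0.34 ± 0.14 and 0.11 ± 0.13 (SE; adjusted p by limma 0.0703 and 0.509). These 2 passed under other scalings, at 0.73 and 0.48 with quantile normalization and 0.90 and 0.60 with cyclic loess.

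Limma called 48.5% of all genes between sperm and epididymis, 18.4% higher and 30.1% lower, and of the 10 subunit genes 0 higher and 1 lower. All sperm arrays lay above both epididymis arrays for 2 of 10 subunit genes and 24.8% of all genes, and below them for 2 of 10 and 35.6%. The median change was -0.25 for the subunit genes and -0.08 for all genes, and its sign moved with the scaling (0.14 and 0.015 after quantile normalization, 0.25 and 0.06 after cyclic loess). Smarcd3 differed by -0.35 ± 0.53 (SE; adjusted p by limma 0.606), with 0.26 after quantile normalization, 0.55 after cyclic loess, 0.19 without low protein sperm replicate 2 and 0.35 without the low protein epididymis array. Both epididymis levels of this gene lay inside the range of the sperm arrays. Marker means in low protein and control epididymis were 9.96 and 9.94 for smooth muscle, over 2 above every sperm array. They were 9.67 and 9.75 for epithelium (sperm 7.75 to 8.83) and 9.31 and 9.57 for fibroblast and matrix (sperm 7.72 to 8.46). For endothelium they were 6.48 and 6.65 (sperm 5.91 to 6.43), and for leukocytes 6.92 and 7.35 (sperm 6.68 to 7.33). The part of these markers in this comparison was not tested.

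**Figure D3:**
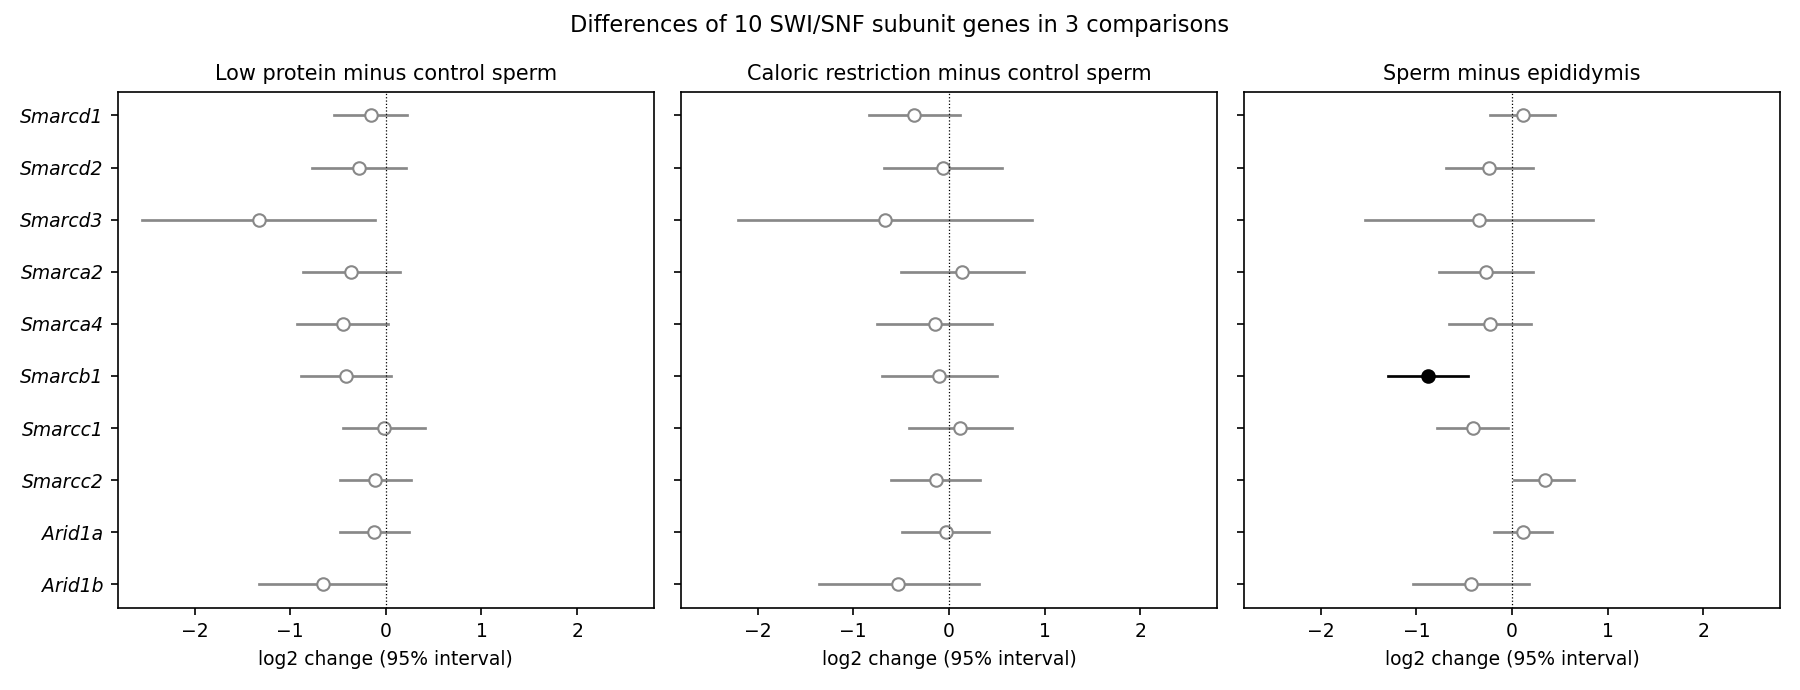
Log2 change of each subunit gene (horizontal axis) with its 95% interval in 3 comparisons; filled circles passed the test and open circles did not. Only Smarcb1 in sperm against epididymis is filled, and the intervals of Smarcd3 are the widest in all 3 panels.

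Paralog pairs were compared for unequal differences between sperm and epididymis. The within-array difference Smarcc1 minus Smarcc2 ran from -1.10 to -0.70 in sperm and from -0.31 to -0.01 in epididymis, a shift of -0.73. Arid1a minus Arid1b ran from -0.12 to 1.02 in sperm and from -0.35 to -0.25 in epididymis, a shift of 0.55. Neither pair overlapped, and each had an exact two-sided permutation p of 0.0714, the smallest that 6 against 2 arrays allow (adjusted over 6 pairs, 0.214). Without low protein replicate 2, whose value is the 1.02, the shifts were -0.72 and 0.39 (exact permutation p = 0.0952 for each, the smallest that 5 against 2 arrays allow). The pair of ATPases, Smarca2 minus Smarca4, ran from 0.49 to 0.80 in sperm and from 0.45 to 0.75 in epididymis, a shift of -0.01 (exact permutation p = 1). The D subunit pairs overlapped between tissues for Smarcd1 minus Smarcd3 and Smarcd2 minus Smarcd3 (exact permutation p = 0.714 for each), and their shifts of 0.35 and 0.06 were 0.0026 and -0.26 without that replicate. The shift of Smarcd1 minus Smarcd2 was 0.28 (exact permutation p = 0.143), and 0.26 without it.

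In epididymis, with 1 array per diet and no test, low protein minus control differences of the subunit genes ran from -0.14 for Smarcc2 to 0.22 for Smarca2. Their median was 0.08, and the SD of the differences over all genes tested was 0.19. Smarcd3 differed by 0.14, with levels of 10.26 in low protein and 10.12 in control epididymis. Set against the low protein difference in sperm, the test of sperm minus epididymis gave -1.47 ± 0.97 for Smarcd3 (SE; adjusted p by limma 0.875). That test passed 0 of 10 subunit genes and 0% of all genes by limma. The unadjusted p was under 0.05 for 610 genes, none of them a subunit gene, and 0 passed with a trend in eBayes. No replicate of epididymis backs this comparison.

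**Figure D4:**
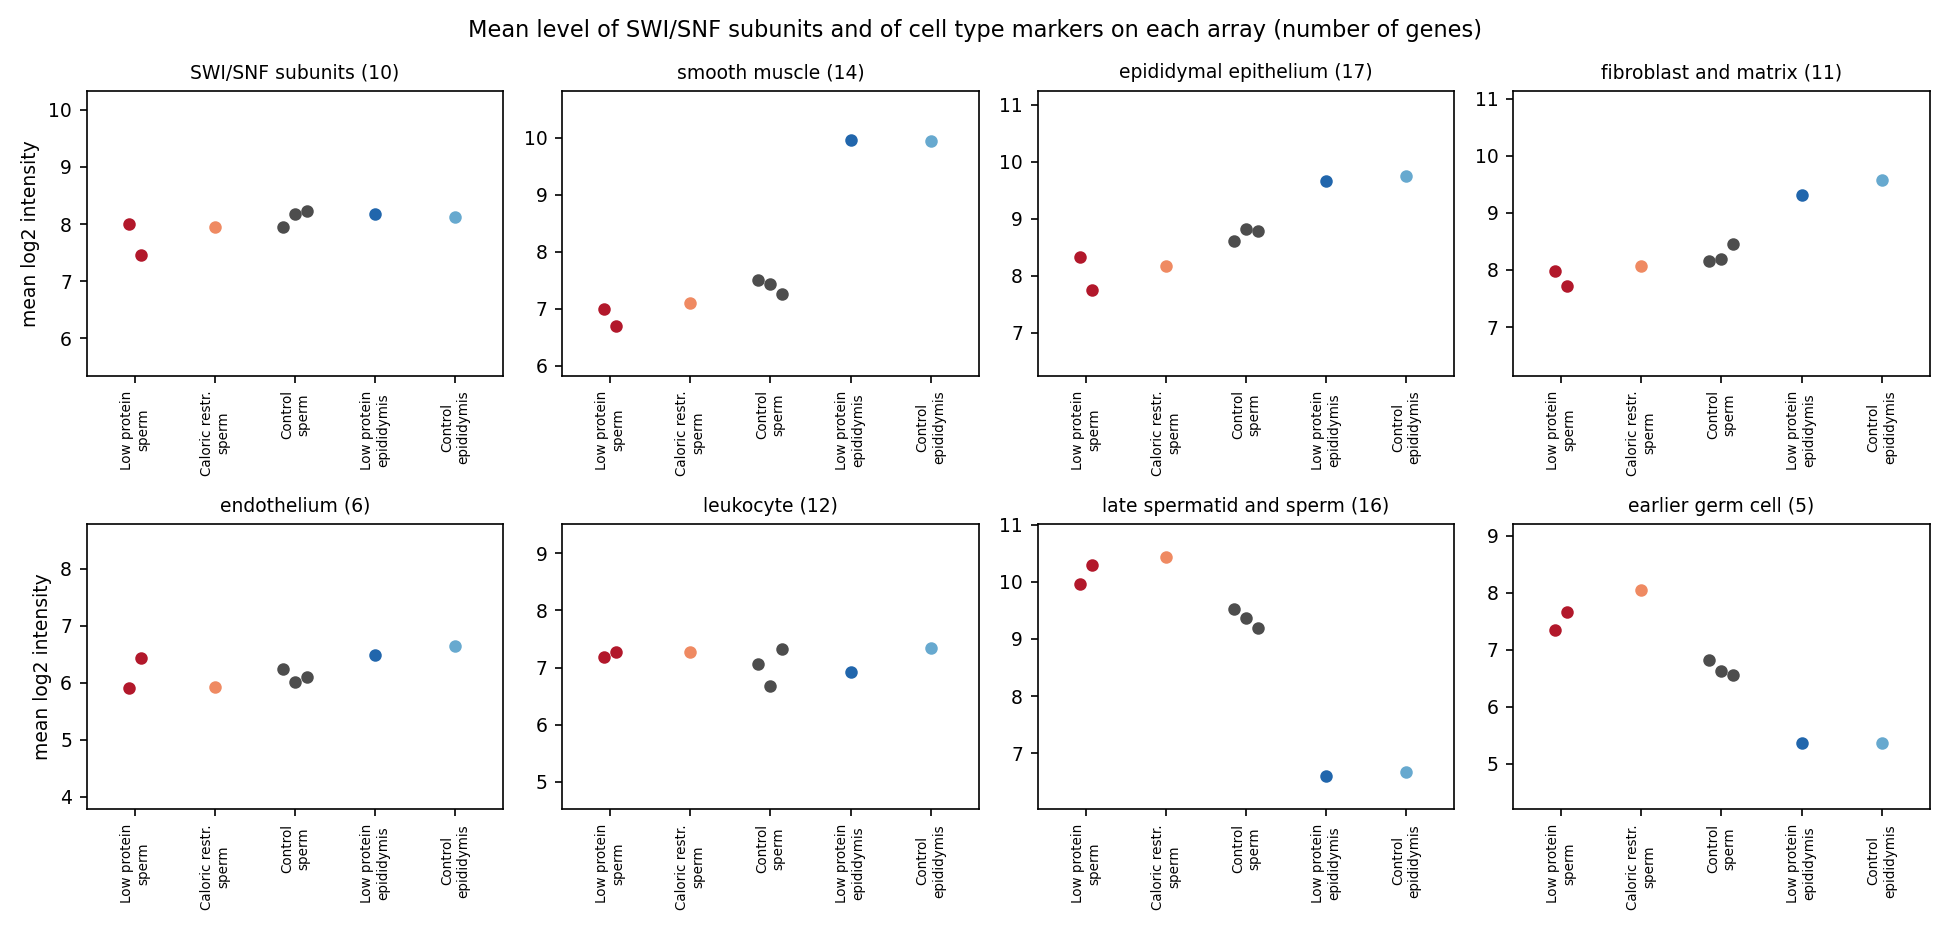
Mean log2 intensity (vertical axis) of the 10 SWI/SNF subunit genes and of 7 lists of cell type markers on each array, with the number of genes in each list; points are arrays and every panel spans 5 log2 units. Smooth muscle and epididymal epithelium means are lower, and late spermatid and earlier germ cell means higher, on the restricted diet sperm arrays than on the control sperm arrays.

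Over the whole list the subunit genes stood between 7.45 and 8.00 in low protein sperm (mean log2 level of the 10), at 7.94 in caloric restriction sperm and between 7.95 and 8.23 in control sperm, against 8.18 in low protein and 8.13 in control epididymis. The low protein and control ranges of this subunit mean overlapped (low protein replicate 1 at 8.00, control replicate 1 at 7.95). Those of the late spermatid and sperm markers did not. The mean of 16 late spermatid and sperm markers was 9.97 and 10.30 in low protein sperm, 10.43 in caloric restriction sperm and 9.20 to 9.52 in control sperm. Fibroblast and matrix markers (11 genes) had means of 7.72 to 7.99 in low protein, 8.07 in caloric restriction and 8.16 to 8.46 in control sperm, while the leukocyte means overlapped, at 7.19 to 7.28 in low protein, 7.28 in caloric restriction and 6.68 to 7.33 in control sperm. In low protein sperm 13 of 14 smooth muscle, 17 of 17 epithelium and 11 of 11 fibroblast and matrix markers had estimates below 0, and 16 of 16 late spermatid markers above 0. Of the other somatic lists, 2 of 6 endothelium markers (median 0.07) and 3 of 12 leukocyte markers (median 0.24) had estimates below 0. Endothelium means were 5.91 and 6.43 in low protein, 5.93 in caloric restriction and 6.01 to 6.23 in control sperm. No marker is at 0 on this scale. Beyond the covariate for Smarcd3, the part of these markers in the subunit values was not tested.

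Other remodeller genes were set beside the subunit genes from lists of 4 further groups: 20 other SWI/SNF subunits, 13 ISWI, 19 CHD and NuRD, and 25 INO80, SRCAP and TIP60-p400 genes tested. In low protein sperm 0 of these 77 passed. The list medians were -0.07, -0.15, -0.41 and 0.01. CHD and NuRD genes had 15 of 19 estimates below 0, against 56.5% of all genes (median -0.06). Without low protein replicate 2 it was 14 of 19, against 62.3% of all genes, with medians of -0.10 and -0.08. Smarca1, an ISWI ATPase, read 9.29 and 7.31 in low protein, 9.07 in caloric restriction and 9.32, 9.95 and 9.86 in control sperm, which like Smarcd3 is lowest on low protein replicate 2.

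On the single caloric restriction array, whose spread is taken from the other sperm groups, 3 of the 77 passed as higher (3.9%) and 0 as lower, against 5.56% of all genes called. They were Chd5, a remodeller needed for the histone to protamine exchange in mouse spermatids (1.47 ± 0.27), Dpf3, a histone reader of SWI/SNF (1.40 ± 0.23), and Epc2, of the TIP60 complex (0.99 ± 0.22; SE, adjusted p by limma 0.0166, 0.0114 and 0.0376). All 3 calls were lost without control replicate 2 or 3 (adjusted p by limma 0.0638 to 0.169), and those of Chd5 and Epc2 also after quantile normalization (0.0682 and 0.0652); Epc2 was lost without control replicate 1 too (0.126). Of the late spermatid markers 7 of 16 passed as higher on the same array, and their part in these changes was not tested. Cecr2, an ISWI partner expressed in mouse testis, was the 1 gene of the 77 (1.3%, against 2.75% of all genes) to pass with both restricted diets together (1.05 ± 0.18, adjusted p by limma 0.0411). Its levels were 7.15 and 7.58 in low protein, 7.31 in caloric restriction and 6.47, 6.36 and 6.06 in control sperm, against 5.36 in low protein and 5.20 in control epididymis. The call of Cecr2 was lost without the caloric restriction array or any one control array (adjusted p by limma 0.0847 to 0.251).

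Between sperm and epididymis 10 of these 77 genes rose (13%, against 18.4% of all genes) and 21 fell (27.3%, against 30.1%) by limma. This split moved with the scaling: 13 rose and 6 fell after quantile normalization, and 19 rose and 9 fell after cyclic loess. Over all 13587 genes tested, 2417 rose and 2642 fell under the first scaling, and 3609 rose and 3260 fell under the second. The share of calls that were higher thus rose over all genes too (37.9%, then 47.8% and 52.5%). Of the 31 remodeller genes called before rescaling, 16 kept their call under the first and 19 under the second. Rbbp4 changed sign under cyclic loess (0.041). These counts were added after the values were seen. Higher in sperm were Cecr2 (1.53), Chd5 (1.34), Dpf3 (0.94), Znhit1 (0.93), Baz1a (0.69), Ino80b (0.67), Bicra (0.59), Chd7 (0.55), Gatad2a (0.55) and Baz2a (0.48). Cecr2 read 5.36 and 5.20 in low protein and control epididymis, both below the filter level of 5.69. It was therefore tested only through its sperm levels, so its higher value in sperm was partly built in. The call of Baz2a was lost after median centring (0.43, adjusted p by limma 0.0654). Among SWI/SNF subunits Actb fell by 1.44 ± 0.20, Pbrm1, which marks the PBAF form of the complex, fell by 0.99 ± 0.25, Arid2 fell by 0.67 and Actl6a fell by 0.63. The calls of Pbrm1 and Arid2 were lost under both quantile normalization and cyclic loess, that of Actl6a after quantile normalization, and that of Actb after cyclic loess (-0.39). In the other complexes the largest falls were those of Rbbp7 (-1.84), Hdac2 (-1.60), Smarca1 (-1.49), Smarca5 (-1.44), Uchl5 (-1.13) and Mta2 (-1.09), of which Rbbp7, Smarca5 and Uchl5 kept their call under all 3 other scalings. Chd6, Chd9, Actr6, Ruvbl1 and Rbbp4 had smaller changes (-0.94, -0.79, -0.81, -0.73 and -0.63). The calls of Smarca1, Chd9 and Rbbp4 were lost under both quantile normalization and cyclic loess, and those of Hdac2, Mta2 and Chd6 under quantile normalization (adjusted p by limma 0.0562, 0.0531 and 0.0699).

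**Figure D5:**
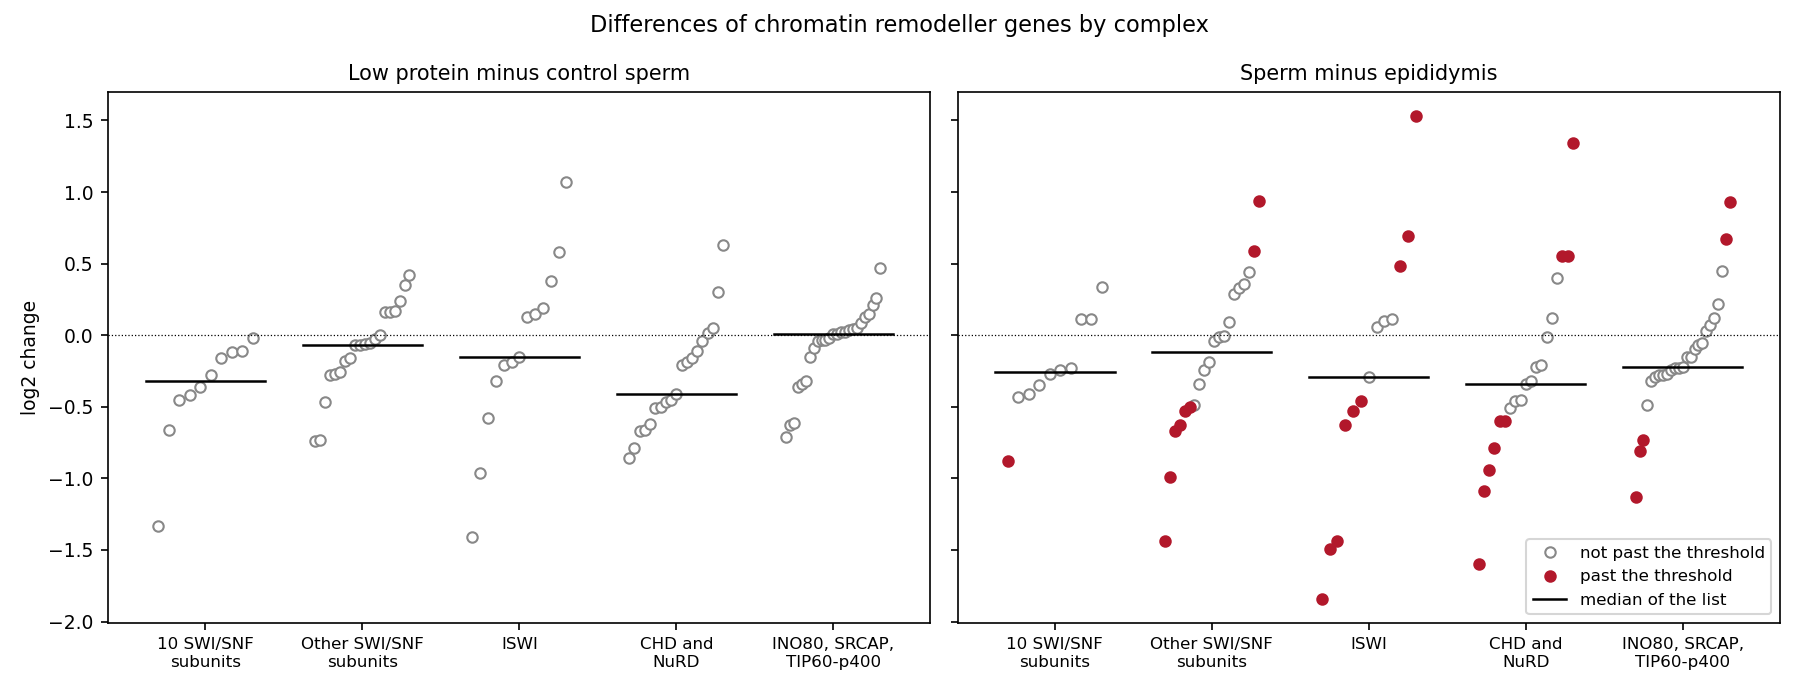
Log2 change of each chromatin remodeller gene (vertical axis) by complex in low protein against control sperm (left) and in sperm against epididymis (right); filled circles passed the test, open circles did not, and lines are list medians. No circle is filled on the left; on the right 1 of the 10 subunit genes, Smarcb1, and 31 of the other 77 genes are filled.

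The genes whose pattern over the 8 arrays was most like that of Smarcd3 were Gramd1a, Hira, Garem1, Plekhh1 and Eef2, with Pearson correlations of 0.994, 0.993, 0.991, 0.991 and 0.990. All were low on low protein replicate 2, which follows largely from choosing them by likeness to Smarcd3 over these arrays. Hira, a chaperone of histone H3.3, read 7.33 and 6.54 in low protein sperm and averaged 7.36 in control sperm. Eef2, a translation elongation factor, read 11.84 and 10.27 in low protein sperm, against a control sperm mean of 11.91. Over the 7 arrays without that replicate, all of which took part in the choice, the correlations were 0.95, 0.97, 0.90, 0.90 and 0.89. The most opposite patterns were those of Mettl15, Rilpl1 and Focad, at -0.963 each. Among the subunit genes Smarca4 (0.96), Arid1b (0.93) and Smarca2 (0.87) were most like Smarcd3, and without low protein replicate 2 these were 0.61, 0.74 and -0.13, while Smarcd1 moved from 0.59 to 0.97. These describe 8 arrays that share tissues and 1 outlying library, and carry no test.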

How the data were processed

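RNA was measured on 8 Affymetrix arrays. The authors deposited a log2 intensity for each probe set. RMA is named in the submitters' processing notes, without a version. The log2 scale was read from the values (1.17 to 14.5, array medians 6.08 to 6.17). Among 33660 probe sets, 21222 had a single gene symbol, 1541 had several and 10897 had none here. Gene identifiers gave current symbols for 21137 (GRCm38.p6 names; 85 kept). Where a gene had several, the one of highest mean was used, and each subunit gene had 1. The lowest 30% of genes by mean over all arrays (log2 5.69 and below) were left out, which kept 13587.

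Tests were two-sided, with lmFit and eBayes in limma 3.58.1 (R 4.3.3), Benjamini-Hochberg adjustment and a threshold of 0.05, after a check on simulated data. Sperm diet comparisons used 6 sperm arrays with a mean per diet; sperm against epididymis used 8 arrays with tissue and diet terms. Alternatives were other normalizations, filters, probe set means, an eBayes trend, a marker covariate for Smarcd3 and leaving out arrays. Paralog pairs were tested by exact permutation over arrays. Remodeller genes are named by a rule (past the threshold, up to 4 of largest change per list and direction), except that Smarca1 in low protein sperm was chosen after its values were seen. Subunit genes, lists and rules were chosen with earlier results of these data known. Depth has no meaning for arrays, and their number limits the precision. Of the list genes, Crisp1 and Ino80e had no probe set with 1 gene here. No detection call was used.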

Additional observations from a re-analysis of the deposited data

How the results depend on the processing

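Of the subunit results, the call of Smarcb1 between sperm and epididymis was lost only without the low protein epididymis array among the alternatives run (0 of 10 subunit genes passed then, and 1 without any other array); quantile normalization and cyclic loess each gave 3 of 10. Of the 13587 genes tested in that comparison, quantile normalization called 2417 higher and 2642 lower, and cyclic loess 3609 higher and 3260 lower. Whether the 3 of 10 differed from these shares was not tested. No subunit gene passed under a diet with all arrays in, whatever the normalization, filter, probe set rule or eBayes setting. Without single arrays the number passing was 0 to 5 for low protein, 0 to 1 for caloric restriction and 0 to 2 for low protein against caloric restriction, and 0 to 1 for the difference between tissues; each upper end came without low protein replicate 1, when the lone array is assumed to vary like the control group, and for caloric restriction also without replicate 2. The number of genes passing over all genes was 0 to 5155 for low protein, 298 to 2021 for caloric restriction (main 756), 0 to 1428 for both diets (main 373; 0 without the caloric restriction array or any control array, 654 without low protein replicate 2), 0 to 1956 for low protein against caloric restriction and 0 to 1639 for the difference between tissues; for sperm against epididymis it was lowest at 2748 without the low protein epididymis array (main 6594, highest 7236). Quantile normalization gave 503 for caloric restriction; a 50% filter 197 and an eBayes trend 168 for both diets; cyclic loess 114 and an eBayes trend 23 for low protein against caloric restriction. Between sperm and epididymis the share of calls that were higher was 37.9%, and 47.8% and 52.5% after quantile normalization and cyclic loess. For low protein and for caloric restriction against control, the highest subunit counts and the highest counts over all genes came from the same fits. Whether the subunit counts in those fits differed from the counts over all genes was not tested. The cause was not tested where values moved.

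The marker covariate turned Smarcd3 to 1.49 (low protein), 1.32 (caloric restriction), 1.34 (both diets) and 0.17 (low protein against caloric restriction). Cyclic loess turned signs of uncalled values: for low protein Smarca2 (0.025), Smarcc1 (0.17), Smarcc2 (0.24) and Arid1a (0.18); for caloric restriction Smarcd2 (0.069), Smarcb1 (0.024), Smarcc2 (0.012) and Arid1a (0.11); for both diets Smarca2 (0.12), Smarcc2 (0.17) and Arid1a (0.16); for low protein against caloric restriction Arid1a (0.07); for sperm against epididymis Smarcd2 (0.16), Smarcd3 (0.55), Smarca2 (0.33), Smarca4 (0.18) and Arid1b (0.025); for the difference between tissues Arid1a (0.14). Quantile normalization did so for Smarcc1 (0.096) and Smarcc2 (0.0044) under low protein, for Smarcc1 (0.021) and Arid1a (0.15) between the diets, and for Smarcd2 (0.083), Smarcd3 (0.26), Smarca2 (0.19) and Smarca4 (0.093) between tissues. Leaving out single arrays turned values that ran as follows. The range for low protein was that of Smarcc1 from -0.15 to 0.062. The range for caloric restriction was that of Smarcd2 from -0.23 to 0.082, Smarcc1 from -0.0051 to 0.21, Arid1a from -0.083 to 0.0028. The range for both diets was that of Smarca2 from -0.36 to 0.059, Smarcc1 from -0.10 to 0.11. The range for low protein against caloric restriction was that of Smarcd3 from -1.74 to 0.43, Smarcc2 from -0.0015 to 0.069, Arid1b from -0.63 to 0.35. The range for sperm against epididymis was that of Smarcd1 from -0.05 to 0.25, Smarcd3 from -1.12 to 0.35, Smarca2 from -0.57 to 0.0056. The range for the difference between tissues was that of Smarcc2 from -0.028 to 0.09.

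No paired analysis was possible because the labels give no replicate numbers that groups share.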
